A study of Mus musculus with 4 samples.

Results

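The genes followed here were Cxcl9, Cxcl10, Cxcl16, Cxcr3 and Cxcr6, chosen by symbol, and they make up 5 of the 32285 genes in the count matrices. They were chosen because Cxcl9 and Cxcl10 lead a group of macrophages held mostly by 1 sample, so their levels in monocyte-macrophage cells across the samples are a description and not a test. The working name of the set, interferon-induced CXCR3 chemokines, covers Cxcl9, Cxcl10 and Cxcr3, whereas CXCL16 is the ligand of CXCR6. The cells were leukocytes of the colonic lamina propria, picked out by magnetic beads against CD45, from mice with colitis set off by dextran sulfate sodium (DSS), which injures the epithelium, at 2% in the drinking water over 7 days. The colon was taken on day 8. Each of the 4 samples was a pool of 3 mice, and the labels gave the age as 10 weeks, which differs from the age in the study's text. The series title names WT and AhR-deficient mice, but the labels of the 4 samples carry no genotype, and the names of the deposited files, which do carry one, were not used. Each sample was therefore read on its own and no genotypes were compared.

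CXCL9 and CXCL10 are small secreted proteins that draw cells carrying the receptor CXCR3, chiefly activated T cells and NK cells. Interferon gamma, made by T cells and NK cells, acts through its receptor to switch both genes on, and Cxcl10 also answers to type I interferons and NF-kB. CXCL16 is made as a membrane protein, can be cut free by the proteases ADAM10 and ADAM17, and is bound by CXCR6, a receptor of tissue lymphocytes.

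The matrices held 45229 cells, of which 39550 were kept, 7539 to 11824 per sample, with a median of 5641.5 to 7081 unique molecular identifiers (UMIs, each standing for 1 captured transcript) per cell. Classes were gated on detected marker genes, which placed 27234 cells. A further 7095 cells with markers of several lineages and 5221 cells reaching no gate were left out, and the several-lineage cells held 22.3% to 39.5% of the ligand UMIs and up to 59.4% of those of a receptor (Cxcr3, sample 2). Pairs of samples shared 23 to 49 cell barcodes. Not every gated cell matched the CD45+ label: Ptprc, the CD45 gene, had a UMI in 94.7% to 100% of the cells in the leukocyte gates examined but in 17.0% to 41.7% of the cells in the fibroblast gate. Levels below are CPM, the UMIs of a gene scaled to 1e6 UMIs summed over a class in a sample, with 95% exact Poisson intervals, and shares of positive cells count cells with at least 1 UMI. Both kinds of interval cover counting error only. A class was read in a sample only where it held at least 50 cells.

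Cxcl9 (ENSMUSG00000029417, chr5:92321347-92328079) and Cxcl10 (ENSMUSG00000034855, chr5:92346638-92348889) are protein-coding neighbours on the minus strand of GRCm38, 18.56 kb apart. Their RefSeq sequences (GRCm38.p6) of the 250 bases before the annotated start are shown. The reason is that the pair stood in different proportions in monocyte-macrophage cells and neutrophils, as given below. Capitals mark matches, on either strand, to GGGANTTCC (NF-kB-like) or to GAAA, then NN, then GAAA (ISRE-like, the element bound by interferon-activated factors). The motifs searched do not overlap in either sequence. The windows are chr5:92328080-92328329 for Cxcl9 and chr5:92348890-92349139 for Cxcl10.
Cxcl9: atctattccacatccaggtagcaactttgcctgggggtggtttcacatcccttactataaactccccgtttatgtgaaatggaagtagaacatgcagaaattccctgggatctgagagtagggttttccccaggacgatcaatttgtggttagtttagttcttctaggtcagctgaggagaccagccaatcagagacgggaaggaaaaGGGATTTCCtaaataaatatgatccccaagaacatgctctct
Cxcl10: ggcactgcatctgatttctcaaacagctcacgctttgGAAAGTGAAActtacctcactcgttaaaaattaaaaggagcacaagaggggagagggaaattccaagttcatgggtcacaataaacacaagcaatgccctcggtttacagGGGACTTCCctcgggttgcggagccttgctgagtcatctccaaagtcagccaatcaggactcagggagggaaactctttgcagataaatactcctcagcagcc
The Cxcl9 window held GGGATTTCC from -42 to -34 relative to the start. In the Cxcl10 window, GGGACTTCC lay from -103 to -95 and GAAAGTGAAA from -213 to -204. Of 32851 promoter windows of this length, 1.431% held the NF-kB-like and 2.977% the ISRE-like letters. Another pattern, TTCNNNGAA (GAS-like), was in neither window and in 7.02% of all windows. These matches describe letters and were not tested as binding sites.

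Cxcl9 was highest in sample 1 in every ligand-bearing class that could be read in all samples, namely monocyte-macrophage cells, type 2 conventional dendritic cells, fibroblasts and neutrophils. In monocyte-macrophage cells it stood at 499 (489-509), 110 (103-117), 72.6 (69.0-76.3) and 41.5 (37.9-45.3) CPM in samples 1 to 4. Sample 1 was thus 4.53-fold (4.25-4.84) above sample 2, and none of the 4 intervals overlapped. The share of Cxcl9-positive cells in this gate was 27.1%, 10.8%, 9.44% and 5.22%.

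Cells differed in depth, so they were also thinned to 1000 UMIs each, leaving out 1062 shallower cells in all. After thinning, Cxcl9-positive monocyte-macrophage cells made up 14.7%, 4.67%, 3.89% and 2.60% of the class. The order of the samples was the same at equal depth. In B cells, set beside them as a class with little Cxcl9, the thinned shares were 0.805%, 0.154%, 0% and 0.256%. In sample 1, 4 B cells held 10 or more Cxcl9 UMIs, and 1 held 56 of the 220. Whether B cells made the transcript was not tested. Median depths were 5241.5, 4048, 4679.5 and 4129.5 UMIs in B cells against 8773, 6067, 6862.5 and 5870 in monocyte-macrophage cells.

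Other cells carried Cxcl9 at similar or higher levels in some samples. Type 2 conventional dendritic cells, which present antigen to T cells, held 443, 132, 20.1 and 37.5 CPM, with 80 of the 121 UMIs of sample 2 in 1 cell. In sample 1, thinned, the 14 positive cells of this class carried the monocyte-macrophage marker list at 643 (294-1220) CPM. The 72 negative ones carried it at 375 (247-546) CPM, an overlapping interval. A UMI of the list was found in 57.1% of the positive and 20.8% of the negative cells. Fibroblasts held 400, 244, 109 and 41.3 CPM, which put them above monocyte-macrophage cells in samples 2 and 3 and below them in sample 1. In sample 2, 93 of the 184 UMIs lay in 1 fibroblast, and without the richest cell of each class fibroblasts stood at 123 (98.7-151) and monocyte-macrophage cells at 101 (94.3-107) CPM, which overlap. With each cell thinned, however, the fibroblasts of sample 1 were at 0.80 of the next sample, where unthinned counts gave 1.64-fold.

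Endothelial cells of samples 3 and 4 held 184 and 77.0 CPM of Cxcl9, the highest of all classes read in those samples. These values came from 130 UMIs in 73 cells, 27 of them in 1 cell, and from 29 UMIs in 51 cells. Samples 1 and 2 had too few endothelial cells to read. Type 1 conventional dendritic cells held 128 and 152 CPM in samples 1 and 2 (61 of the 104 UMIs of sample 2 in 1 cell), and mature dendritic cells 15.7 and 14.7 CPM in samples 3 and 4. Monocyte-macrophage cells were first in sample 1, and in sample 2 the lead of fibroblasts over them was within counting error without the richest cells. Another entry rested almost wholly on a single cell: the 128 CPM of NK cells and type 1 innate lymphocytes in sample 1 came from 122 of 125 UMIs in 1 cell and was 3.13 CPM without it.

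**Figure D1:**
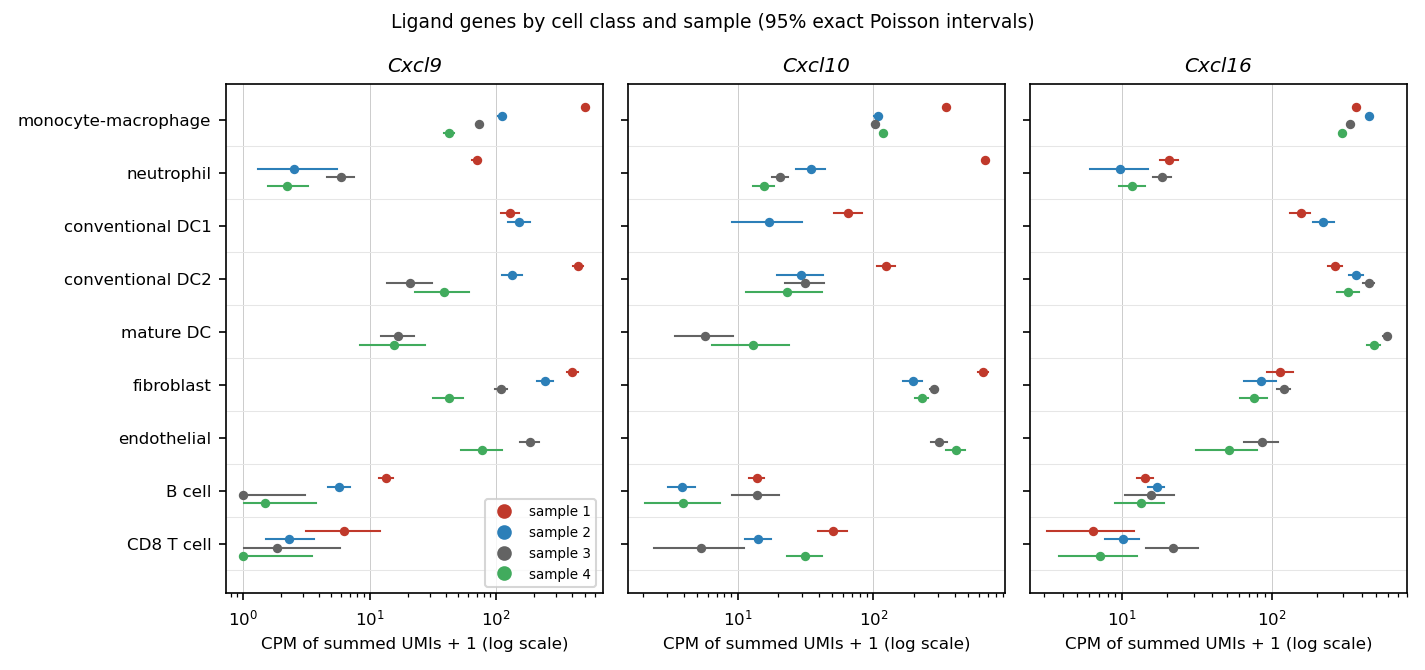
Cxcl9, Cxcl10 and Cxcl16 in CPM of summed UMIs plus 1 (log axis) for each cell class and sample, with 95% exact Poisson intervals as bars. Sample 1 lies above the others for Cxcl9 and Cxcl10 in monocyte-macrophage cells (499 and 344 CPM) and neutrophils (69.3 and 662 CPM), whereas the 4 samples lie between 297 and 449 CPM for Cxcl16 in monocyte-macrophage cells.

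Cxcl10 was also highest in sample 1, and there its level in neutrophils exceeded that in monocyte-macrophage cells. Monocyte-macrophage cells held 344, 107, 102 and 116 CPM in samples 1 to 4, a fold of 2.96 (2.79-3.13) between sample 1 and the next. The thinned share of positive cells was 12.3%, 7.93%, 7.55% and 8.46%. Samples 2 to 4 lay close together, unlike their spread for Cxcl9.

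Neutrophils held 662 (645-679) CPM of Cxcl10 in sample 1 and 33.8, 19.5 and 14.6 CPM in samples 2 to 4. Sample 1 was 19.6-fold (15.4-25.4) above sample 2. Within sample 1 neutrophils stood 1.92-fold (1.86-1.99) above monocyte-macrophage cells, whereas in samples 2, 3 and 4 they stood at 0.316, 0.191 and 0.125 of them. The order of the 2 classes was thus opposite in sample 1 and in the other 3 samples. Neutrophils of the 4 samples had median depths of 6103, 3269, 3648 and 5209 UMIs.

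The share of Cxcl10-positive neutrophils was 39.0% in sample 1 and 2.88%, 3.88% and 2.27% in samples 2, 3 and 4. After thinning the shares were 22.2%, 1.64%, 1.44% and 1.07%, beside 1.04%, 0.231%, 1.58% and 0.256% in B cells, so that in sample 3 neutrophils did not stand above B cells. Many cells shared the signal of sample 1: 185 neutrophils had 10 or more Cxcl10 UMIs, and the richest held 121 of 5844. Elsewhere 1 cell could hold much of it, with 59 of 119 UMIs in sample 4 and 26 of 66 in sample 2.

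Among the cells kept in the neutrophil gate of sample 1, the Cxcl10-positive ones did not stand higher for monocyte-macrophage markers. Gating by marker counts itself holds down the markers of other classes in the cells it keeps. Cells with markers of several lineages had been left out, and the comparison does not cover them. They held 31.2% of the Cxcl10 UMIs of sample 1, and the neutrophil gate 26.3%. Thinned, the 293 Cxcl10-positive neutrophils carried the monocyte-macrophage marker list at 188 (141-244) CPM and the 1028 negative ones at 202 (176-232) CPM. The neutrophil list stood at 21911 and 19704 CPM. The few positive neutrophils of samples 3 and 4 (32 and 15 cells) did carry more of the monocyte-macrophage list, at 438 (239-734) and 667 (320-1226) CPM against 232 and 228 CPM in the negative ones, with separate intervals in sample 4 only. Across the neutrophil gates of the 4 samples the summed monocyte-macrophage list was 195, 175, 241 and 219 CPM, lower in sample 1 than in samples 3 and 4. Single markers of the list ran both ways. Adgre1 was highest in sample 1, at 83.1, 34.8, 39.7 and 43.8 CPM, and F13a1 lowest there, at 6.91, 14.3, 36.1 and 69.6 CPM. Genes induced by interferons (without the chemokines) stood at 4659 (4415-4913) CPM in the positive and 2819 (2717-2924) CPM in the negative neutrophils of sample 1, and at 1146, 1066 and 764 CPM in the negative neutrophils of samples 2, 3 and 4. The positive neutrophils of samples 3 and 4 stood at 2844 (2290-3491) and 3467 (2589-4546) CPM, so that a higher level in positive cells was not particular to sample 1.

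Neutrophils carried less Cxcl9 than Cxcl10. Its level was 69.3 CPM in sample 1, of which 1 cell gave 136 of 612 UMIs (54.0 CPM without it), and 1.54, 4.94 and 1.23 CPM in the other samples. Per Cxcl9 UMI, the neutrophils of sample 1 held 9.55 (8.78-10.4) Cxcl10 UMIs. The same ratio was 0.690 in monocyte-macrophage cells, 0.279 in type 2 conventional dendritic cells, 1.03 in B cells and 1.60 in fibroblasts of that sample. The neighbouring genes therefore stood in different proportions in different classes of the same library.

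**Figure D2:**
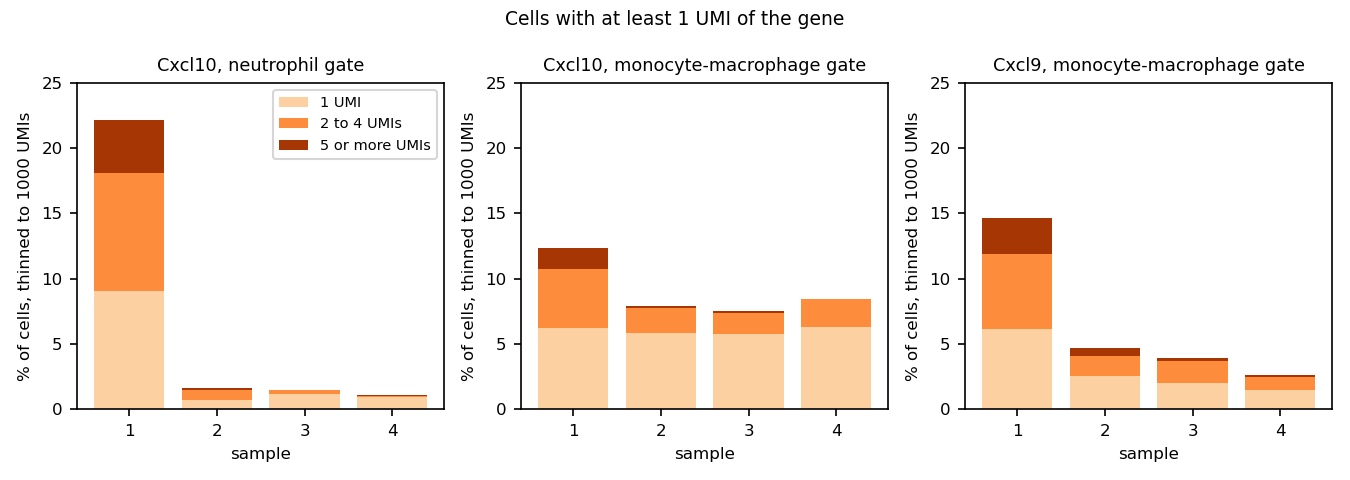
Percent of cells (y axis) with 1, 2 to 4, or 5 or more UMIs of the gene in each sample (x axis), after thinning every cell to 1000 UMIs, for Cxcl10 in neutrophils and for Cxcl10 and Cxcl9 in monocyte-macrophage cells. In neutrophils 22.2% of cells were positive in sample 1 and at most 1.64% in another sample, and 4.09% of sample 1 neutrophils held 5 or more UMIs.

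Stromal cells also stood high for Cxcl10 by CPM. The fibroblast gate was small, however, and held 2.58%, 4.61%, 14.4% and 8.86% of the Cxcl10 UMIs in samples 1 to 4. In sample 1 it made up 0.659% of the cells. The 47 mature dendritic cells of sample 1, too few to read, held 2.13% of its Cxcl10 UMIs in 0.469% of its cells. Fibroblasts held 641, 195, 278 and 226 CPM in samples 1 to 4, which was 1.86-, 1.82-, 2.74- and 1.94-fold the level of monocyte-macrophage cells, above it in 4 of 4 samples. Without the richest cell of each class, fibroblasts stood at 465, 131, 251 and 169 CPM and monocyte-macrophage cells at 337, 103, 99.4 and 114 CPM. The intervals of sample 2 then overlapped, at 107-160 and 96.5-110 CPM. Endothelial cells held 303 and 406 CPM in samples 3 and 4, first of all classes read there, with an interval overlapping that of fibroblasts in sample 3. In the fibroblast gate the summed monocyte-macrophage list was 981, 1042, 767 and 698 CPM. The largest share of that sum was Vcan (538 to 914 CPM), while C1qa was at 4.68 to 14.6 CPM and Ms4a7 at 0 in all 4. Type 2 conventional dendritic cells held less Cxcl10, at 124, 28.4, 30.5 and 22.0 CPM.

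The monocyte-macrophage gate spans newly arrived monocytes and mature macrophages. Cells were put on the monocyte side or the macrophage side by which marker list was detected in the larger share. In sample 1 Cxcl10 stood at 509 CPM on the monocyte side and 89.6 CPM on the macrophage side, a fold of 5.68 (5.24-6.17). The fold was 1.12, 1.87 and 0.738 in samples 2, 3 and 4, so that the side with more Cxcl10 was not the same throughout.

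Cxcl9 followed the sides less. It stood at 602 against 312 CPM on the monocyte and macrophage sides in sample 1, 80.9 against 121 in sample 2, 77.3 against 66.6 in sample 3 and 30.6 against 44.9 in sample 4. The macrophage side of sample 1, at 312 CPM, still exceeded both sides of every other sample. For Cxcl10 the macrophage side of sample 1, at 89.6 CPM, lay below the macrophage sides of samples 2 and 4, at 104 and 131 CPM.

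Cxcl16 lay on the macrophage side in 4 of 4 samples. The macrophage side held 561, 579, 503 and 413 CPM and the monocyte side 246, 168, 172 and 124 CPM, folds of 2.28, 3.45, 2.92 and 3.33. No macrophage-side value overlapped a monocyte-side value. Its pattern over the sides was therefore unlike that of Cxcl10 in sample 1.

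**Figure D3:**
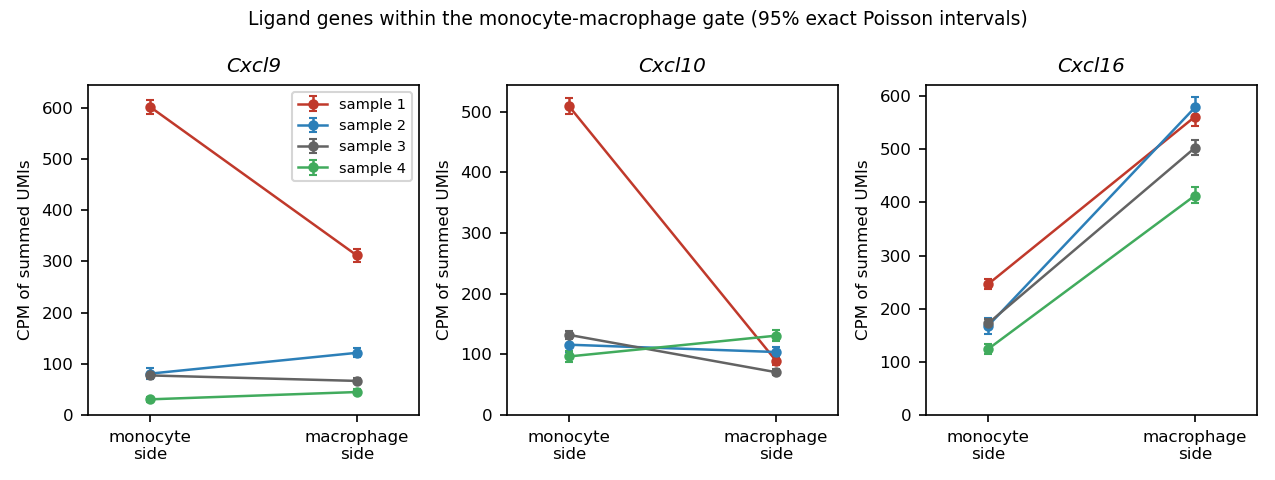
CPM of summed UMIs of Cxcl9, Cxcl10 and Cxcl16 (y axes) on the monocyte and macrophage sides of the monocyte-macrophage gate, with a line per sample and 95% exact Poisson intervals. Cxcl16 goes up towards the macrophage side in 4 of 4 samples, and Cxcl10 in sample 1 goes from 509 CPM down to 89.6 CPM.

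Monocyte-macrophage cells clustered without the 5 genes gave 13 sub-clusters, and the same sub-cluster was highest for Cxcl9 and for Cxcl10. For Cxcl10 its lead was narrow, at 623 CPM against 562 CPM in a sub-cluster of 875 cells, and with the interferon-induced genes left out another sub-cluster led (669 against 513 CPM). The Cxcl9-rich sub-cluster held 281 cells, 237, 13, 24 and 7 from samples 1 to 4, and 63.3% of them were on the monocyte side. Beside this, 1253 of all 2155 monocyte-macrophage cells of sample 1 were on the monocyte side. The Cxcl9 level of the sub-cluster was 2428 CPM against 91.6 CPM in the rest of the class. These values chose the group and carry no test. The other leading genes by fold were Cfb (complement factor B, 815 against 67.1 CPM), Ly6i, AA467197, Nos2 (inducible nitric oxide synthase, 411 against 44.8 CPM), Calhm6, Upp1, Cnn3, Ass1 (argininosuccinate synthase, which restores the arginine used by that enzyme) and Gm15056. Group and rest were each pooled over samples, so these folds also carry differences between sample 1 and the others. Within sample 1 Nos2 stood at 415 CPM in the group and 12.7 CPM in the rest.

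Within sample 1 the group held the Cxcl9 and Cxcl10 UMIs of the class in unequal measure. Its cells, 11.0% of the class, held 70.9% of the Cxcl9 UMIs but 26.2% of the Cxcl10 UMIs and 19.99% of the Cxcl16 UMIs. The remaining monocyte-macrophage cells of sample 1 stood at 168 CPM of Cxcl9 and 294 CPM of Cxcl10. In samples 2, 3 and 4 the remaining cells stood at 94.8, 59.6 and 36.2 CPM of Cxcl9 and 101, 99.99 and 116 CPM of Cxcl10. Outside the group, both genes were thus still higher in sample 1 than in any other sample.

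In monocyte-macrophage cells Cxcl10 was detected more often in Cxcl9-positive than in Cxcl9-negative cells in 4 of 4 samples, with separate intervals in sample 1 only. Among thinned monocyte-macrophage cells, Cxcl10 was detected in 27.0% (22.2-32.2) of Cxcl9-positive and 9.83% of Cxcl9-negative cells of sample 1. The shares were 13.6% and 7.65% in sample 2, 12.3% and 7.36% in sample 3 and 14.6% and 8.30% in sample 4. In fibroblasts of sample 3 they were 64.7% (38.3-85.8) and 10.3%, and in neutrophils of sample 1 53.1% (34.7-70.9) and 21.4%. Neutrophils of samples 2, 3 and 4 had 1, 5 and 3 Cxcl9-positive cells, and 0 of these held Cxcl10. On the monocyte side of sample 4, Cxcl10 was detected in 0 of 14 Cxcl9-positive and 7.24% of Cxcl9-negative cells, with overlapping intervals. Every other side and sample had the order seen in the whole class. Cxcl16 was detected in 38.4% of Cxcl9-positive and 25.5% of Cxcl9-negative monocyte-macrophage cells of sample 1. By Cxcl10 the shares were 24.9% in positive and 27.8% in negative cells, with overlapping intervals. In samples 2, 3 and 4 the shares by Cxcl9 were 43.9% and 32.1%, 30.2% and 25.02%, and 20.8% and 21.9%, with overlapping intervals. Those by Cxcl10 were 28.6% and 33.1%, 23.3% and 25.4%, and 25% and 21.6%, also with overlapping intervals.

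Cxcl16 (ENSMUSG00000018920, chr11:70453983-70459984, minus strand, protein coding) varied less between samples than Cxcl9 and Cxcl10 in monocyte-macrophage cells. Monocyte-macrophage cells held 368, 449, 332 and 297 CPM and were positive in 77.0%, 70.7%, 66.9% and 60.5% of cells, or 27.4%, 32.7%, 25.2% and 21.9% after thinning. Sample 2, not sample 1, was highest over the class, whereas on the monocyte side sample 1 was highest, as given above. Mature dendritic cells, which have taken up antigen and move to lymph nodes, held 587 and 481 CPM in samples 3 and 4, 1.77- and 1.62-fold the monocyte-macrophage level.

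Type 2 conventional dendritic cells held 263, 368, 445 and 324 CPM of Cxcl16, below monocyte-macrophage cells in samples 1 and 2 and above them in sample 3. Fibroblasts held 113, 83.4, 120 and 74.8 CPM. Neutrophils held 19.6, 8.71, 17.5 and 10.7 CPM, beside 13.1, 15.9, 14.5 and 12.3 CPM in B cells. The chemokine of CXCR6 was thus carried by macrophages and dendritic cells, and neutrophils were near the level of B cells.

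Across the 10954 genes tested for the contrast between all T cells and monocyte-macrophage cells, 6.33% were at least 4-fold higher in T cells in 4 of 4 samples, and Cxcr3 and Cxcr6 were among them. In the other direction 7.05% were called, and Cxcl9 and Cxcl16 were among them. Testing needed 5 CPM in either class in a sample. Cxcr3 and Cxcr6 reached that level in T cells only, so their direction followed from the filter. Cxcl10 was higher in monocyte-macrophage cells in each sample but not 4-fold so in sample 3, at 102 against 33.9 CPM.

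Cxcr3 (ENSMUSG00000050232, chrX:101731535-101734269, minus strand, protein coding) was highest in T cells that also carried Foxp3, the factor of regulatory T cells. Foxp3+ T cells held 53.5, 37.3, 43.4 and 58.6 CPM in samples 1 to 4 and were first of all classes in 4 of 4 samples. CD4 T cells without Foxp3 held 26.8, 21.5, 35.7 and 32.5 CPM, so that the Foxp3+ cells were at 2.0 (1.27-3.15), 1.74 (1.02-2.94), 1.22 (0.887-1.68) and 1.80 (1.29-2.53) times their level. The interval reached below 1 in sample 3, where the classes did not differ beyond counting error.

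CD8 T cells held 18.3, 13.1, 25.1 and 29.1 CPM of Cxcr3, and NK cells and type 1 innate lymphocytes 4.08, 11.3, 8.25 and 9.19 CPM. In ILC2, the innate lymphocytes that make type 2 cytokines, 1 UMI was found in the 4 samples together. Detection was sparse. Foxp3+ cells were positive in 30.3%, 21.1%, 35.4% and 39.7% of cells but in 6.58%, 5.56%, 2.81% and 5.30% after thinning, at median depths of 9196.5, 7230.5, 9689 and 10324 UMIs. CD4 T cells without Foxp3 were positive in 2.35%, 1.73%, 5.0% and 3.35% after thinning, above the Foxp3+ cells in sample 3, and the intervals overlapped in all 4 samples. Monocyte-macrophage cells, which should lack the receptor, held 0.511 to 1.51 CPM and were positive in at most 0.212% after thinning.

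Cxcr6 (ENSMUSG00000048521, chr9:123806475-123811760, plus strand, protein coding) had another order of classes. Among the classes read, it was highest in gamma-delta T cells and ILC2. Gamma-delta T cells held 459, 171 and 396 CPM in samples 1, 2 and 4, with too few cells in sample 3. ILC2 held 437, 558, 170 and 301 CPM, which was 4.0-, 4.42-, 1.39- and 2.44-fold the level of CD4 T cells without Foxp3 and above it in 4 of 4 samples. The intervals of gamma-delta T cells and ILC2 overlapped in sample 1. Type 3 innate lymphocytes (ILC3), with 14 to 29 cells per sample, were too few to read and were not ranked. They held 3.89%, 1.62%, 1.69% and 0.845% of the Cxcr6 UMIs in 0.140%, 0.245%, 0.256% and 0.345% of the cells. ILC2 held 13.8%, 5.10%, 5.57% and 9.62% of these UMIs in 0.709%, 0.457%, 0.964% and 1.72% of the cells.

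CD4 T cells without Foxp3 were steady between samples at 109, 126, 122 and 124 CPM of Cxcr6. CD8 T cells held 52.6, 78.5, 66.7 and 96.2 CPM. Foxp3+ T cells, first for Cxcr3, held 24.98, 99.3, 51.8 and 62.1 CPM of Cxcr6. This was below CD4 T cells without Foxp3 in each sample, with an interval of that fold that included 1 in sample 2. NK cells and type 1 innate lymphocytes held 20.4, 33.9, 5.16 and 11.0 CPM.

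Positive cells gave nearly the same order. After thinning, 25.4%, 45.3%, 10.2% and 26.8% of ILC2 and 7.65%, 11.7%, 11.1% and 7.82% of CD4 T cells without Foxp3 were positive, the former not above the latter in sample 3. Monocyte-macrophage cells stood at 0.716 to 1.92 CPM and at most 0.271% after thinning. Cells with UMIs of both receptors were too few to compare: of all T cells, 1, 4, 1 and 2 held both after thinning in samples 1 to 4.

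**Figure D4:**
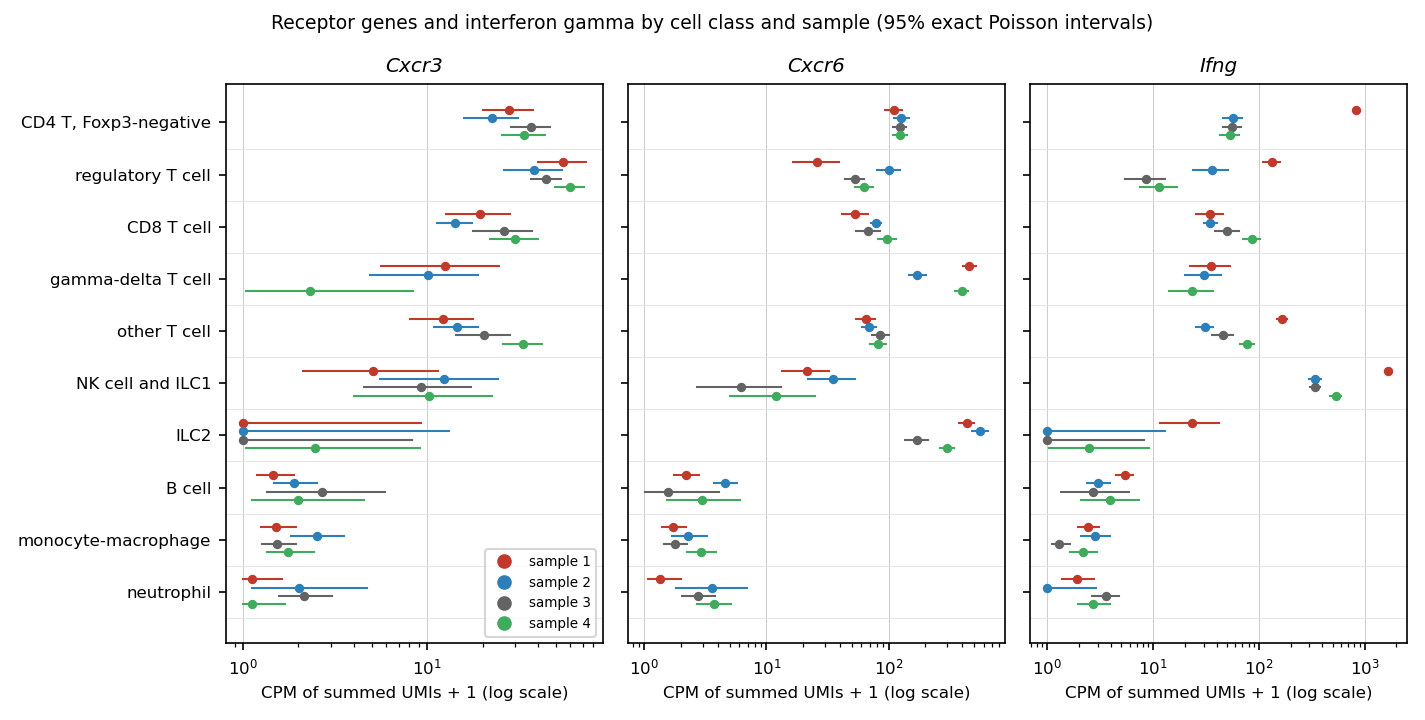
Cxcr3, Cxcr6 and Ifng in CPM of summed UMIs plus 1 (log axis) by cell class and sample, with 95% exact Poisson intervals. Among the classes shown, Cxcr3 is highest in Foxp3+ T cells (37.3 to 58.6 CPM) and Cxcr6 in ILC2 (170 to 558 CPM) and gamma-delta T cells. The Ifng point of CD4 T cells of sample 1 (833 CPM) rests mostly on 1 cell.

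Ifng, which encodes interferon gamma, was highest in NK cells and type 1 innate lymphocytes in 4 of 4 samples. This class held 1652 CPM in sample 1 and 341, 341 and 533 CPM in samples 2 to 4. Without the cell richest in Ifng in each sample the values were 1357, 305, 299 and 357 CPM, and sample 1 stayed first. Positive cells made up 43.4%, 22.4%, 28.8% and 29.6% after thinning. The sample with the most Cxcl9 and Cxcl10 was thus also first for Ifng in this class, an observation over 4 libraries whose bearing on the chemokines was not tested.

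CD4 T cells without Foxp3 held 833 CPM of Ifng in sample 1, but 1098 of 1213 UMIs lay in 1 cell, and without the richest cell the 4 samples stood at 80.1, 44.8, 52.6 and 47.3 CPM. T cells outside the named subsets stood, likewise without the richest cell, at 94.0, 27.7, 41.3 and 52.6 CPM. By these CPM values sample 1 was first in both. In CD4 T cells without Foxp3 of sample 1, however, 3 cells held 10 or more Ifng UMIs, the richest included. The thinned share of Ifng-positive cells in this class ranged from 2.16% to 5.59% and was highest in sample 4. In T cells outside the named subsets it ranged from 2.56% to 6.79% and was highest in sample 1. CD8 T cells held 33.5, 33.9, 49.4 and 84.7 CPM, with samples 1 and 2 lowest. Among the type I interferons, Ifnb1 in monocyte-macrophage cells was at 1.28, 2.27, 4.18 and 10.5 CPM, lowest in sample 1, and Ifna4 had no UMI there. These levels lay below the 50 CPM needed for testing between samples. Plasmacytoid dendritic cells, with 10 to 25 cells per sample, were too few to read.

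Some of the genes induced by interferons were, like the chemokines, highest in sample 1. In monocyte-macrophage cells, 0.537% of 3724 genes tested were at least 2-fold higher in sample 1 than in every other sample and 0.564% at least 2-fold lower. Of the 3 members tested there, Cxcl9 and Cxcl10 passed, and this comparison was the one that chose them. Cxcl9 was also at least 4-fold higher, as were 0.0537% of the genes. Of 13 interferon-induced genes tested, 4 passed, all guanylate-binding proteins, and 10 were highest in sample 1, where 25.9% of all genes were. The median difference in log2(CPM + 1) between sample 1 and the highest other sample was 0.80 for the list and -0.19 for all genes. Gbp4, which passed, and Gbp5, Il18bp and Irf7 reached the 50 CPM needed for testing only in sample 1. Their first rank there thus followed from the filter.

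Gbp2, a guanylate-binding protein of defence against intracellular microbes, stood at 744 CPM in monocyte-macrophage cells of sample 1 and at 127, 240 and 126 CPM in samples 2 to 4. Gbp3, Gbp4 and Gbp7 were the others called. Not all interferon-induced genes were high in sample 1. Rsad2, an antiviral gene, stood at 62.8, 77.3, 201 and 233 CPM and Oasl1 at 231, 225, 377 and 374 CPM, each higher in samples 3 and 4. Nos2, which leads the Cxcl9-rich group, was at 67.5, 9.60, 88.4 and 52.5 CPM over the class.

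In neutrophils more of these genes were called. Of 2955 genes tested, 1.52% were at least 2-fold higher in sample 1 than in every other sample and 0.237% at least 2-fold lower. Both members tested, Cxcl9 and Cxcl10, passed, each at least 4-fold higher as were 0.372% of the genes. At 2-fold, 9 of 12 interferon-induced genes passed: Gbp2, Gbp5, Gbp7, Igtp, Irgm1, Irgm2, Ifit1, Isg15 and Oasl1. The list's median log2 difference was 1.98, against -0.40 over all genes, and 11 of the 12 were highest in sample 1 (17.9% of all genes). However, both members and Gbp5, Gbp7, Igtp, Irgm1, Irgm2, Ifit1 and Oasl1 reached the 50 CPM needed for testing only in sample 1. Their first rank in sample 1 thus followed from the filter, and the counts and median include them. Gbp2 and Isg15 reached 50 CPM in other samples too.

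Gbp2 in neutrophils stood at 773, 122, 138 and 75.0 CPM and Gbp5 at 82.9, 13.3, 12.1 and 4.53 CPM. Irf1, a transcription factor induced by interferon gamma, was at least 2-fold higher in sample 1, at 199, 57.9, 96.0 and 51.2 CPM. Among the other lists (cytokines that raise interferon gamma, type I and III interferons with their receptors, ligand processing, and the type 1 program of lymphocytes) no gene was called in either class, but few could be tested. Of the 7 cytokines, 0 were tested in monocyte-macrophage cells and 1 in neutrophils. Interferons with receptors had 2 of 6 genes tested and ligand processing 2 genes in each class. The type 1 program had 5 of 10 tested in monocyte-macrophage cells and 2 in neutrophils. Adam17, which encodes a protease that can free CXCL16, stood at 130, 111, 587 and 504 CPM in neutrophils, higher in samples 3 and 4. Cxcl11, the other ligand of CXCR3, and Mx1 were not analysed here.

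**Figure D5:**
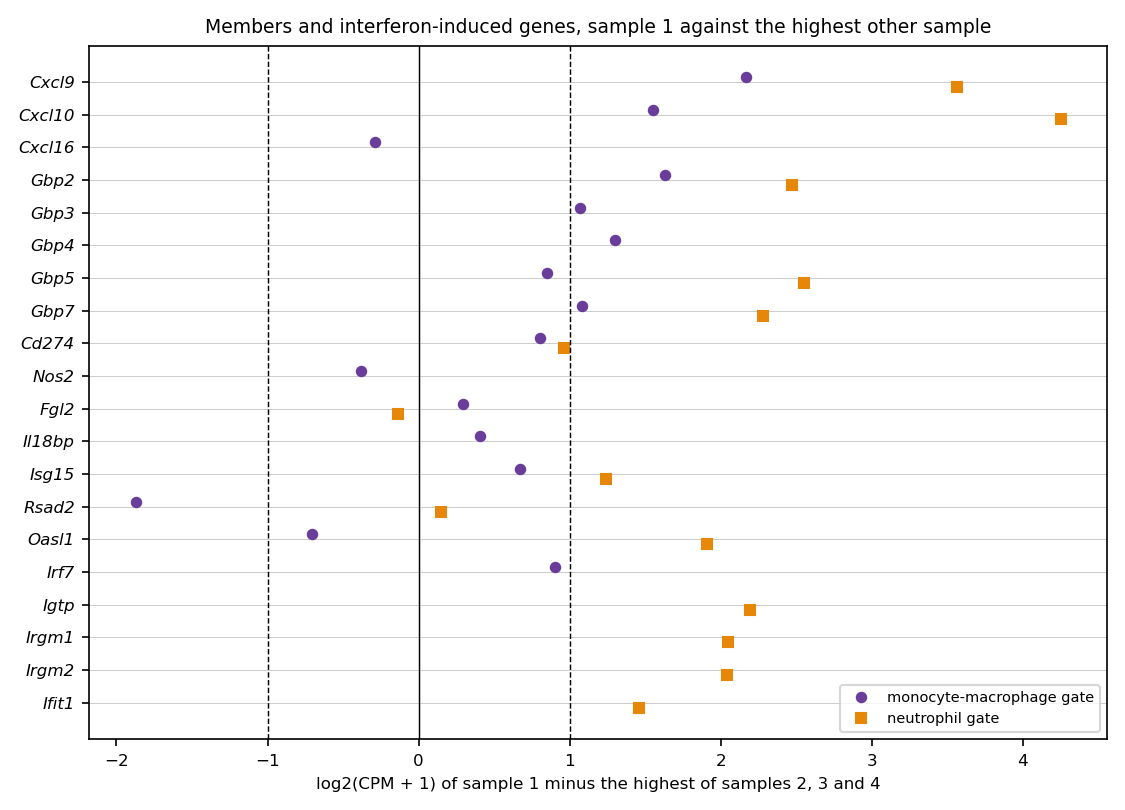
Difference in log2(CPM + 1) between sample 1 and the highest of the other samples (x axis, dashed lines at a 2-fold difference), for Cxcl9, Cxcl10, Cxcl16 and the interferon-induced genes tested in monocyte-macrophage cells and in neutrophils. The interferon-induced list has a median of 0.80 in monocyte-macrophage cells and 1.98 in neutrophils, and Rsad2 and Oasl1 lie below 0 in monocyte-macrophage cells. Genes that reached 50 CPM only in sample 1 lie above 0 because of that filter.

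The genes with the most similar pattern differed from member to member. Likeness was Pearson's r of log2(CPM + 1) over 57 combinations of class and sample, compared with 8293 genes, and the points share libraries, so r is a description. Nearest to Cxcl9 were Ifitm3 (r = 0.827), Pnp, Anxa5, Zfp385a and Sdc3, and nearest to Cxcl10 were Gbp2 (r = 0.733), Smad6, Xdh, Pnp and Tns1. Those nearest to Cxcl16 were Nrp2 (r = 0.882), Slc8a1, Dab2, Apba1 and Cttnbp2nl.

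For the receptors, Cxcr3 was nearest to Sh2d1a, a signalling adaptor of T and NK cells (r = 0.885), Ctla4, Trac, Gimap7 and Tigit, of which Trac served in the T cell gate. Cxcr6 was nearest to Icos, a costimulatory receptor of T cells (r = 0.934), Acsbg1, Zap70, Camk4 and Ppp1cc. Pnp was the gene common to the lists of Cxcl9 and Cxcl10.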

How the data were processed

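Single-cell libraries of 4 samples were used. The matrices deposited by the authors hold UMI counts without normalization for the cells that were called. Their header names Cell Ranger 7.0.1, while the submitters' processing notes name Cell Ranger 5.0.0, STAR, Seurat and mm10. Deposited totals were 113806334, 135516016, 101579112 and 72509408 UMIs in 11425, 13730, 11581 and 8493 cells. Labels gave no genotype, so all samples were left ungrouped and no test or p-value was computed.

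Cells with at least 200 genes and under 20% mitochondrial UMIs were kept (43432). Scrublet's automatic threshold marked no cell in 2 samples and was not used. The highest scores were removed instead, at 0.8% per 1000 cells (3882 cells). A cell entered a class with 2 to 5 markers of its list and none of the gates of another lineage. The members, lists and markers were chosen with earlier results of these data known, and the gate thresholds after marker counts per cell had been seen. Named genes were the members, pathway genes with examples of largest fold, the 10 leading genes of the Cxcl9-rich group (genes at 50 CPM or more) and the 5 genes nearest each member (genes reaching 50 CPM). Rsad2, Oasl1, Nos2, Irf1 and Adam17, all on the lists, were picked out after their values were seen. Further genes are not reported here. Genes were tested between samples at 50 CPM or more in a sample. Between T cells and monocyte-macrophage cells they were tested at 5 CPM or more in either class. Macrophage clustering used 2000 variable genes, 20 principal components, 15 neighbours and Leiden resolution 0.6.

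Coordinates came from GENCODE M21 on GRCm38, which held 99.61% of the gene identifiers. Steps were tested on simulated data. Tools were Python 3.11.15, scanpy 1.11.5, leidenalg 0.10.2, numpy 2.4.6, scipy 1.17.1, pandas 2.3.3 and matplotlib 3.10.9.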

Additional observations from a re-analysis of the deposited data

How the results depend on the processing

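Of 196 recomputed values, 150 were labelled the same, 45 moved and 1 reversed. Folds and shares were the same if they lay inside the counting interval of the main value. Counts of samples, genes or cells were the same if within a set ratio of the main count, whatever the counting error. Cxcl9 in monocyte-macrophage cells, 4.53-fold higher in sample 1 than in the next sample, was 4.05 with 1 marker more per gate, 5.01 with Leiden clusters as classes, 4.21 with each cell thinned and 4.87 without the richest cell. For Cxcl10 in these cells (2.96-fold) the values were 3.23, 3.33 and 2.44 under the first 3 of these and 3.19 with several-lineage cells kept. Cxcl10 in neutrophils (19.6-fold) was 13.4 with several-lineage cells kept and 31.6 without the richest cell. The fold of neutrophils over monocyte-macrophage cells for Cxcl10 in sample 1 (1.92) was 1.80 with 1 marker more, 1.57 with several-lineage cells kept, 1.75 with Leiden clusters and 2.24 thinned. The share of Cxcl9-positive monocyte-macrophage cells of sample 1 was 14.7% thinned, and that of Cxcl10-positive neutrophils 22.2% thinned and 42.3% with several-lineage cells kept.

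Cxcl9 in fibroblasts, 1.64-fold higher in sample 1, reversed to 0.80 when thinned. Cxcl9 in neutrophils (14.0-fold) ranged from 5.84 to 21.3 and in type 2 conventional dendritic cells (3.36-fold) from 2.35 to 8.24. The thinned fold of Cxcl10 in the latter was 1.75 against 4.05. With at least 100 cells per class and sample, which leaves fewer points, Cxcl9 kept 1 of its 5 nearest genes, Cxcl10 2, Cxcl16 3, Cxcr3 1 and Cxcr6 4. The causes were not tested. The Cxcl9-rich group held 297 cells, 83.5% of sample 1, at resolution 1.0. With interferon-induced genes left out it held 301 cells, 85.4% of sample 1, and was no longer the highest for Cxcl10. Leiden clusters did not resolve the T cell subsets and gave no value for them. Removal of the richest cell, and the alternatives for the pathway lists and for co-detection, were chosen after seeing the data. No paired analysis was possible because no sample had a group. No sample was left out in turn, since each is given on its own.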
